A study of Canis lupus familiaris with 62 samples.

Results

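The genes described here are the multi-exon genes of dog chromosome 26, taken from a table of read counts for 62 canine meningiomas. A gene was included if the authors' table placed it on chromosome 26, listed more than 1 exon row for it and gave it a span under 500 kb. Of its 669 chromosome 26 genes, 569 met the rule, out of 30951 genes in the whole table. The 100 others were 95 genes with a single exon row and 5 genes of 500 kb or more. The longest gene kept spanned 407285 bases and the shortest one left out for length spanned 509066 bases.

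Meningiomas are tumours of the membranes that cover the brain and spinal cord. In humans many of them lose one copy of the long arm of chromosome 22, which carries the tumour suppressor NF2, and a lost copy tends to lower the RNA of many neighbouring genes at once. Part of the dog counterpart of that human arm lies on dog chromosome 26, and the dog's immunoglobulin lambda light-chain locus, used by B cells and plasma cells, is on the same chromosome. The count table carries Ensembl identifiers without gene names, and none of the identifiers could be matched to a name, so the dog NF2 gene and the lambda genes were not picked out by name. Genes are given by identifier for at most 2 per direction and comparison and otherwise by position on CanFam3.1, and no role is stated for any of them.

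Each library came from 1 tumour of 1 dog, with total RNA extracted from formalin-fixed, paraffin-embedded tissue. By the treatment label, 9 dogs had surgery and radiotherapy (SxRT), 13 surgery (Sx), 3 radiotherapy (RT), 3 an anti-epileptic drug alone and 7 a steroid, in 6 of these labelled together with an anti-epileptic, and 27 had no treatment. The labels abbreviate surgery and radiotherapy, and these readings are assumed. For some of the Sx and SxRT dogs the label adds that the dog was lost to follow-up, and these dogs were kept in their group. There were 31 females and 31 males, and 7 dogs were intact, against 55 neutered. All were spontaneous tumours diagnosed by histopathology. The tissue was either a surgical biopsy or taken at necropsy, and the labels of the single samples do not say which, nor whether a treatment came before the tissue was taken, so treatment and the source of the tissue cannot be told apart. Markers of meningioma and of brain, immune and vessel cells could not be checked without gene names.

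Library totals ran from 1967061 to 12063982 counts with a median of 4190135. Chromosome 26 members made up between 1.02% and 1.91% of the counts of a library, and between 279 and 406 of the 569 had at least 1 count in a library. Mitochondrial genes took between 3.00% and 46.7%. The authors' counting took each read of a pair, and most small counts were even: among counts up to 20 the even share was 79.3% to 93.9% in surgical libraries (SxRT and Sx together, median 86.6%) and 84.8% to 95.3% in untreated ones (median 91.4%). The sample names of 21 of the 22 surgical dogs and of no other dog begin with S, and the names are numbered from 11 to 22 without a stated meaning.

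Many chromosome 26 members were weakly expressed. No read was counted in any library for 63 members, 126 had counts but too few to be tested, and 380 (66.8%) were tested, against 59.4% of all genes in the table. A count was seen in every one of the 62 libraries for 209 members. Levels are given as log2 CPM (counts scaled to library size by TMM, on a log2 scale with a prior count of 2), a scale on which a gene without any count stands at -1.16. The tested members had a median level of 3.56 log2 CPM (3.37 over all genes tested), and the mean level of a member ran from -1.02 to 9.09. Per kb of exon the median level was 7.23 CPM (6.35 over all genes tested), with 21 members over 50 and 75 under 1.

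The highest levels per kb of exon belonged to 3 members. The gene from 9970416 to 9974791 had a median of 184 CPM per kb over the 62 tumours, with a range of 63.6 to 484. The gene from 37835661 to 37913176 had a median of 164 CPM per kb and a much narrower range, 104 to 274. The gene from 16399889 to 16402458 had a median of 164 CPM per kb and ranged from 30.1 to 462. It overlaps a gene on the opposite strand. Overlap here means that the spans of the genes overlap, and whether exons are shared was not examined. These counts ignore strand, so where exons are shared the strand cannot separate the reads. Such an overlap was present for 120 of the 569 members, and 180 overlapped another gene on either strand.

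Members differed widely in how much they varied between tumours. The median SD of log2 CPM was 0.91 over the tested members, which ran from 0.24 to 2.87, and 1.00 over all genes tested. Among the 267 members with a mean of at least 2 log2 CPM, 83 had an SD under 0.5 and 7 had an SD over 2. Among these 267 the widest spread, an SD of 2.87, was that of the gene from 19888319 to 20076021. It was followed by the genes from 20299255 to 20307969 (SD 2.44) and from 18573098 to 18691240 (SD 2.34). These 3 lie within less than 2 Mb of each other, and all were among the genes called lower in surgical tumours.

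Tumours of dogs that had surgery differed from those of untreated dogs at 60 of the 380 tested members, 26 of them higher and 34 lower (22 against 27 dogs, edgeR quasi-likelihood test, Benjamini-Hochberg adjusted p under 0.05). This is 15.8% of the tested members, against a background of 16.8 percent of all 18370 genes tested. The higher members made up 6.84% (background 6.37 percent) and the lower members 8.95% (background 10.4 percent), so the chromosome held about the share of calls seen over the genome. Over all tested members the median log2 fold change was 0.05, against -0.02 over all genes, and 55% of the members had a positive one, against 48.7% of all genes. In bulk RNA, fewer cells of one type and less RNA per cell cannot be told apart.

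As over all genes tested, the 2 directions involved different kinds of members. Those called higher were mostly well-expressed genes with modest differences: their median log2 fold change was 0.57, 5 of 26 exceeded a doubling, and 23 of 26 had a mean of at least 4 log2 CPM. Those called lower were mostly weakly expressed and moved by more: their median log2 fold change was -2.24, 24 of 34 were over 2-fold lower, and 11 of 34 reached a mean of 4 log2 CPM. The share past 2-fold was 19.2% of the higher and 70.6% of the lower members, against 29.5% and 74.9% of all genes called higher and lower. The higher members had a median exon length of 3677 bases and a median of 41.5 exon rows, against 1829 bases and 13 rows in members not called. The lower members had 2008 bases and 15.5 rows. Over all genes tested, those called higher likewise had longer exon sequence (2639 bases) than those not called (1831 bases). The levels were split likewise. The median of the mean levels was 5.22 log2 CPM in all genes called higher and 2.63 in all called lower. For members these medians were 5.81 and 2.14 log2 CPM.

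**Figure D1:**
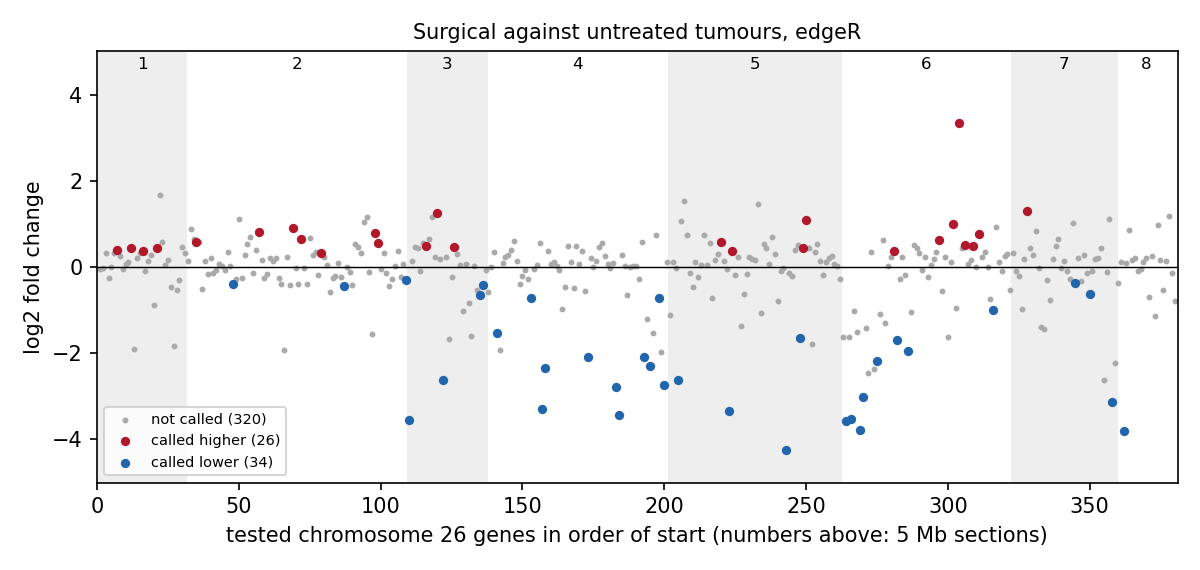
Each point is one of the 380 tested members of chromosome 26, in order along the chromosome (horizontal axis, with the 5 Mb sections numbered 1 to 8 above), and its log2 fold change in surgical against untreated tumours (vertical axis). The 26 members called higher sit mostly between 0 and 1, and the 34 called lower reach -4.25. Section 4 holds lower calls and no higher one, and 53 of its 64 tested members were not called.

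ENSCAFG00000014896 had the largest log2 fold change among the higher members that passed the minimum level and the minimum difference of group medians. It lies from 30233669 to 30239151 on the minus strand, with 8 exon rows and 2279 bases of exon. Its level was 2.97 to 5.96 log2 CPM in surgical tumours (median 4.56), against -0.01 to 4.54 in untreated tumours (median 3.38). It exceeded the untreated median in 21 of 22 surgical tumours, and every untreated tumour in 11 of them. Its log2 fold change was 1.30 (SE 0.31, edgeR adjusted p 0.00234). Its medians were 4.61 log2 CPM in SxRT and 4.53 in Sx tumours, above those of the RT (3.09), anti-epileptic (3.69) and steroid (2.32) groups, which overlapped the untreated range.

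ENSCAFG00000009061, from 10662208 to 10687629 on the minus strand with 64 exon rows, combined a high level with the smallest adjusted p of the 20 members named for this comparison. Surgical tumours stood at 4.85 to 7.59 log2 CPM (median 6.46), against 3.27 to 6.54 in untreated tumours (median 5.20). The groups overlapped, but 19 of 22 surgical tumours exceeded the untreated median and 9 exceeded every untreated tumour. Its log2 fold change was 1.25 (SE 0.19, edgeR adjusted p 2.51e-05).

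The other named higher members had log2 fold changes from 1.09 down to 0.57, and in each the groups overlapped. The gene from 24085382 to 24108540 stood at 5.23 to 10.50 log2 CPM in surgical tumours (median 8.28), against 5.28 to 9.57 in untreated ones (median 7.51). It overlaps a gene on the opposite strand, as does the gene from 22615319 to 22621311, which exceeded the untreated median in 21 of 22 surgical tumours. The gene from 29039021 to 29069578 had medians of 5.08 log2 CPM in surgical and 4.18 in untreated tumours. In 8 of 22 surgical tumours it exceeded every untreated one.

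A pair of the named higher members follow each other along the chromosome, from 9005281 to 9070204 and from 9073809 to 9188414. The first had medians of 5.22 log2 CPM in surgical and 4.66 in untreated tumours, and exceeded the untreated median in 20 of 22 surgical tumours. The second, one of the most abundant members, had medians of 9.48 and 8.75 log2 CPM in surgical and untreated tumours, with 18 of 22 above. The genes from 7308902 to 7375376 and from 7446267 to 7467429 were higher by 0.90 and 0.65 on the log2 scale. The gene from 29307351 to 29359245, higher by 0.77, was the least stable of the 10: it kept its call in 15 of the 49 fits that each left out 1 surgical or untreated library.

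Among the lower members that passed the same minimum level and difference of medians, ENSCAFG00000008916, from 10280850 to 10378061 with 63 exon rows, had the largest change. No read was counted in 15 of 22 surgical tumours, against 3 of 27 untreated ones. Surgical tumours reached at most 4.70 log2 CPM (median -1.16, the value of no count), while untreated tumours reached 6.76 (median 1.56). Its log2 fold change was -3.55 (SE 0.91, edgeR adjusted p 0.00489). The untreated tumours themselves were spread over almost the whole scale, and medians in the other groups were higher, at 2.89 log2 CPM in RT, 3.69 in anti-epileptic and 3.13 in steroid tumours.

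ENSCAFG00000011224, from 18033392 to 18057238 with 46 exon rows, had a log2 fold change of -3.44 (SE 0.86, edgeR adjusted p 0.00393). It had no count in 12 of 22 surgical and 7 of 27 untreated tumours. Surgical tumours reached at most 4.07 log2 CPM and untreated ones 7.75, and 19 of 22 surgical tumours lay below the untreated median of 0.91. The value of 7.75 was that of untreated replicate 12, whose library held 46.5% mitochondrial counts. The member directly before ENSCAFG00000011224, from 17963706 to 18032682, had no count in 11 surgical and 6 untreated tumours and was lower by 2.78. It overlaps a gene on the opposite strand.

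For the gene from 22726526 to 22735125, lower by 3.34, 21 of 22 surgical tumours lay below the untreated median of 3.83 log2 CPM, and the surgical median was -1.16. The gene from 16502031 to 16522744 also lay below the untreated median in 21 of 22 surgical tumours, with medians of -0.16 and 2.19 log2 CPM in surgical and untreated tumours. This gene was not called by limma voom (adjusted p 0.0531). For the gene from 18976361 to 19075458, 8 surgical tumours lay below every untreated tumour, with medians of 1.45 log2 CPM in surgical and 4.05 in untreated tumours. For the gene from 18573098 to 18691240 this held in 6 surgical tumours, and its medians were 2.22 and 4.40 log2 CPM in surgical and untreated tumours. The genes from 19888319 to 20076021 and from 20299255 to 20307969 were lower by 2.73 and 2.62, each with 19 of 22 surgical tumours below the untreated median. The gene from 27615046 to 27616193 overlapped most, with 15 of 22 below. Its highest untreated value was 10.57 log2 CPM, again in untreated replicate 12. It kept its call in 45 of the 49 fits that left out 1 library (log2 fold change -2.88 to -1.08). The call was lost without untreated replicate 12 and without SxRT replicate 3, 5 or 6. It was not called by limma voom (adjusted p 0.266) and had no adjusted p in DESeq2.

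**Figure D2:**
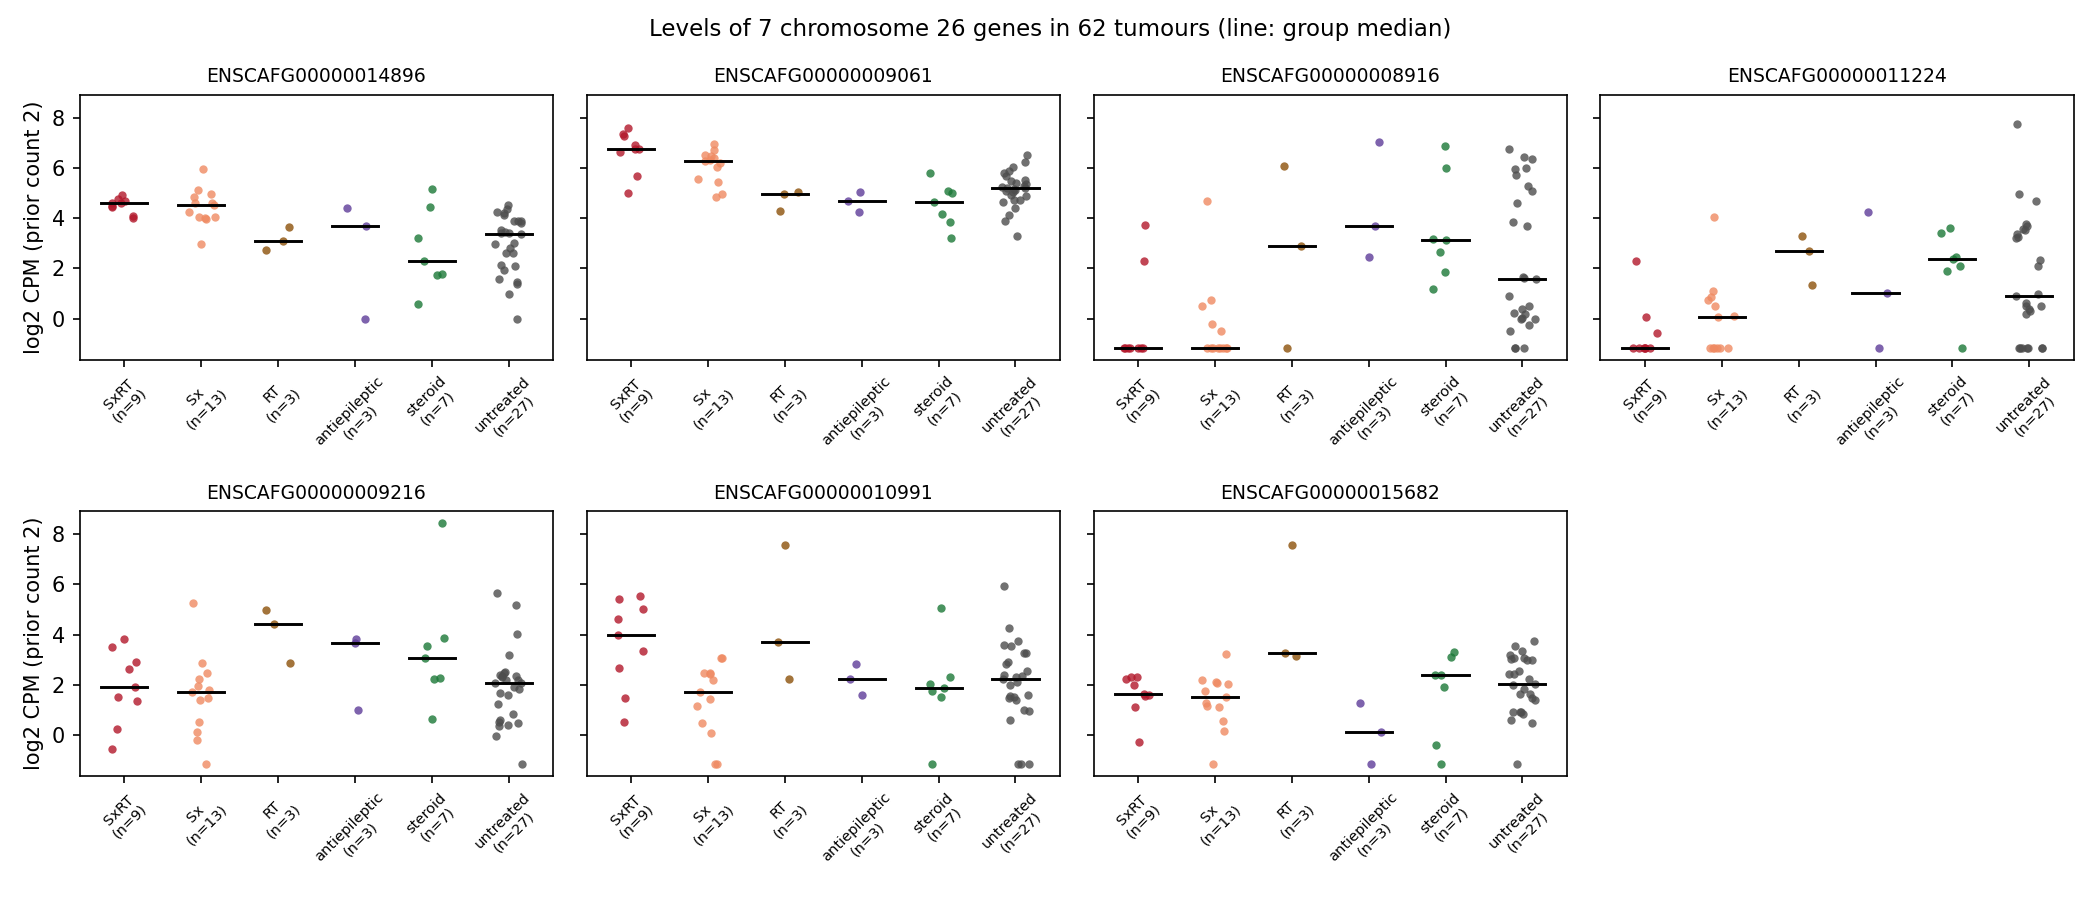
Levels of the 7 members given by identifier (log2 CPM, vertical axis) in each of the 62 tumours, grouped by treatment with untreated tumours last, where each point is 1 tumour and the line is the group median. The upper row shows the pair higher and the pair lower in surgical tumours, and the lower row shows the member called for steroid and the pair called for RT, where single tumours stand far above their group (8.44, 7.56 and 7.57 log2 CPM).

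Library properties differed between the groups as well, and the calls changed when they entered the fit. The mitochondrial share was 3.00% to 19.98% in surgical libraries (median 9.57%) and 6.29% to 46.5% in untreated ones (median 12.8%), beside the even shares given above. With the even share of small counts as a covariate 18 members were called (6 higher and 12 lower), 15 of them among the 60, 5 of the 20 named members kept their call, and the direction was the same for 60 of the 60. Over all 18370 genes tested that fit called 734, against 3078 without the covariate. With the mitochondrial share as a covariate 53 members were called, 44 of them among the 60. The direction was again the same for 60 of the 60, and ENSCAFG00000011224 was among the named members that lost their call. The split was 32 higher and 21 lower in that fit (1200 and 1409 over all genes). With limma voom it was 44 higher and 23 lower (1604 and 1386 over all genes). Without these changes 1171 and 1907 of all genes were called higher and lower. Within samples numbered 11 to 16, and again within those numbered 17 to 22, edgeR called 0 members, with 51 of 383 and 54 of 401 tested members at an unadjusted p under 0.05. Over all genes these smaller fits called 0 of 18153 and 71 of 19503, with 2371 and 3443 at an unadjusted p under 0.05. The direction was the same for 58 of the 58 called members that could be fitted in the earlier numbers and for 57 of 60 in the later ones. The part of the even share in these differences was not tested beyond this fit, and the first letter of the sample name differs from surgery in 1 library alone, Sx replicate 1. That library held the highest surgical values of ENSCAFG00000008916 (4.70 log2 CPM) and ENSCAFG00000011224 (4.07) and the lowest of ENSCAFG00000009061 (4.85), and 75 members were called without it.

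Along the chromosome the members were divided by start position into 8 sections of 5 Mb. From section 1 to section 8 the tested members numbered 31, 78, 28, 64, 61, 60, 37 and 21. In the same order the members called higher in surgical tumours numbered 4, 7, 3, 0, 4, 7, 1 and 0, and those called lower 0, 3, 4, 11, 4, 8, 3 and 1. Sections 4 and 8 thus held lower calls without a higher one, 11 and 1 in number, and section 1 held higher calls without a lower one. In section 4, 53 of the 64 tested members were not called, and 35 of the 64 had a positive log2 fold change. The median log2 fold change of a section stayed between -0.03 (section 7) and 0.13 (section 1), so the middle of each section stood near 0.

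The calls came in runs, described here after the calls were seen and without a test. The first 5 calls from the start of the chromosome, between 379346 and 5493830, were all higher. They are abundant genes with narrow spreads, and the largest, from 5331459 to 5493830, had the highest mean level of all members, 9.09 log2 CPM. Its medians were 9.48 log2 CPM in SxRT and 9.45 in Sx tumours, against 9.05 in untreated tumours. In this stretch 21 of 29 tested members had a positive log2 fold change.

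A run of 14 consecutive lower calls lay between 14500074 and 20307969, a stretch with 90 members and 71 tested. The stretch as a whole was not shifted: 36 of the 71 had a positive log2 fold change and 35 a negative one, with a median of 0.00. The 14 had log2 fold changes from -0.42 to -3.44. The median of their group medians was 0.07 log2 CPM in SxRT, 1.22 in Sx, 5.04 in RT, 4.00 in anti-epileptic and 5.27 in steroid tumours, and 3.91 in untreated tumours. The gene from 19888319 to 20076021 had medians of -0.18 log2 CPM in SxRT, 0.50 in Sx, 6.25 in steroid and 3.77 in untreated tumours. None of the 14 was called between steroid and untreated tumours.

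The stretch from 25233274 to 27616193 was crowded with short genes that were hardly detected. It held 64 members, of which 18 had no count in any library and 34 were counted but too low to test. Only 12 (18.8%) were tested, against 66.8% of all members. The median exon length was 596 bases, against 1569 over all members, and 46 of 64 had 2 or 3 exon rows. Of the 12 tested members 10 had a mean under 1 log2 CPM. Of these 12, 5 were called lower in surgical tumours, 11 had a negative log2 fold change and the median was -2.27. The called members had counts in 11 to 60 of the 62 libraries, and in 4 of the 5 the mean was under 1 log2 CPM.

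About 1 Mb further on, 6 consecutive calls between 28727332 and 29359245 were all higher, and 12 of the 15 tested members there had a positive log2 fold change. They included the gene from 29183483 to 29186830, with the largest log2 fold change of all higher members, 3.33. Its medians were 0.81 log2 CPM in SxRT and 0.70 in Sx tumours, against -1.16 in untreated tumours, and its mean of -0.38 log2 CPM was below the minimum for naming. The other 5 of the run had log2 fold changes from 0.49 to 1.01.

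Steroid tumours differed from untreated ones at 1 member, which was higher (7 against 27 dogs, 0.263% of the tested members, background 0.256 percent, edgeR adjusted p under 0.05). ENSCAFG00000009216 lies from 11696565 to 11708918 with 17 exon rows. It stood at 0.64 to 8.44 log2 CPM in steroid tumours (median 3.06), against -1.16 to 5.64 in untreated ones (median 2.06). The untreated median was exceeded in 6 of 7 steroid tumours. Its log2 fold change was 3.34 (SE 0.77, edgeR adjusted p 0.0321). The highest value was that of steroid replicate 5, whose library was the deepest and held 46.7% mitochondrial counts. Without that library the log2 fold change was -0.18 and no member was called. The call was also lost without untreated replicate 3, 15 or 17, and with limma voom the log2 fold change was 1.42 (adjusted p 0.275).

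RT tumours differed from untreated ones at 3 members, all higher (3 against 27 dogs, 0.789% of the tested members, background 0.435 percent, edgeR adjusted p under 0.05). ENSCAFG00000010991, from 17747362 to 17894400 with 314 exon rows and overlapping a gene on the opposite strand, stood at 7.56, 2.21 and 3.72 log2 CPM in the 3 RT tumours, against -1.16 to 5.93 in untreated ones (median 2.24). ENSCAFG00000015682, from 38424721 to 38588175 with 80 exon rows, stood at 7.57, 3.25 and 3.12 log2 CPM in RT tumours, against -1.16 to 3.74 in untreated ones (median 2.02). Their log2 fold changes were 3.87 (SE 0.89, edgeR adjusted p 0.0179) and 3.63 (SE 0.66, edgeR adjusted p 0.000806). The third, from 23600237 to 23618123, stood at 5.96, -1.16 and 0.33 log2 CPM, against a median of -1.16 in untreated tumours, and had too low a mean for the naming rule. It is named because the count is small.

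In all 3 of these genes RT replicate 1 was the highest of the 62 tumours, and the other RT tumours lay within the untreated range. Without RT replicate 1 no member was called, and the log2 fold changes were 0.89 for ENSCAFG00000010991, 0.65 for ENSCAFG00000015682 and -0.32 for the third gene. ENSCAFG00000010991 was called neither by DESeq2 (adjusted p 0.0517) nor by limma voom (adjusted p 0.0796), and ENSCAFG00000015682 was called by DESeq2 (adjusted p 0.00213) but not by limma voom (adjusted p 0.179). The same tumour had the highest score of all 62 in section 8, 0.99.

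No member was called between SxRT and Sx tumours (9 against 13 dogs, background 0.0109 percent), while DESeq2 called 1 and limma voom 0. In edgeR 14 members (3.68%, against 5.11% of all genes) had an unadjusted p under 0.05. The smallest p belonged to the gene from 33627980 to 33706527, which had no count in any of 9 SxRT tumours and in 10 of 13 Sx tumours. No member was called for the anti-epileptic against untreated tumours (3 against 27 dogs, background 0.00544 percent), while DESeq2 called 1 and limma voom 0. Here 19 members (5%, against 4.61% of all genes) had an unadjusted p under 0.05 in edgeR. There the gene from 7148915 to 7163967 came closest, at 4.93, 0.11 and 1.26 log2 CPM in the 3 treated tumours, against a median of -1.16 in untreated ones (edgeR adjusted p 0.885).

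Between female and male dogs 0 members were called by edgeR, by DESeq2 and by limma voom (31 against 31, background 0.049 percent). In edgeR 37 members (9.74%, against 8.26% of all genes) had an unadjusted p under 0.05. The gene from 27615046 to 27616193 had the smallest p, with medians of 3.30 log2 CPM in females and 2.92 in males. Its log2 fold change was 2.74 (SE 0.71, edgeR adjusted p 0.123), and 1.39 to 2.93 with 1 library left out. Its highest value, 10.57 log2 CPM, was that of a female, untreated replicate 12. Between intact and neutered dogs edgeR called 0 members (7 against 55, background 0.0435 percent), DESeq2 1 and limma voom 0. At an unadjusted p under 0.05 in edgeR stood 32 members (8.42%, against 8.13% of all genes). Here the gene from 31458727 to 31629135 had the smallest p, with counts in 3 of 7 intact and 11 of 55 neutered dogs (edgeR adjusted p 0.275).

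To describe the chromosome as a whole, a score was formed per tumour from the 267 members with a mean of at least 2 log2 CPM. It is the mean over these members of the log2 CPM less the gene's own mean over the 62 tumours, less the tumour's median of the same measure over the 38 autosomes. A value of 0 means that the chromosome stood where the other autosomes of that tumour stood. It is a description of expression and was not tied to any measure of DNA copies.

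The scores ran from -0.37 to 0.36 with an SD of 0.13. The median was 0.11 in SxRT (-0.02 to 0.14), -0.02 in Sx (-0.17 to 0.36), -0.05 in RT (-0.08 to -0.02), -0.04 in anti-epileptic (-0.062 to -0.001), -0.03 in steroid (-0.19 to 0.19) and -0.05 in untreated tumours (-0.37 to 0.19). All groups overlapped the untreated range. The untreated median was the lowest of the group medians. Of the 22 surgical tumours 19 exceeded it, all 9 SxRT and 10 of 13 Sx tumours. So did 6 of 7 steroid, 2 of 3 RT and 2 of 3 anti-epileptic tumours, and 42 of all 62. Below -0.3 lay 1 tumour, untreated replicate 7, and above 0.3 lay 2, Sx replicates 8 and 13.

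**Figure D3:**
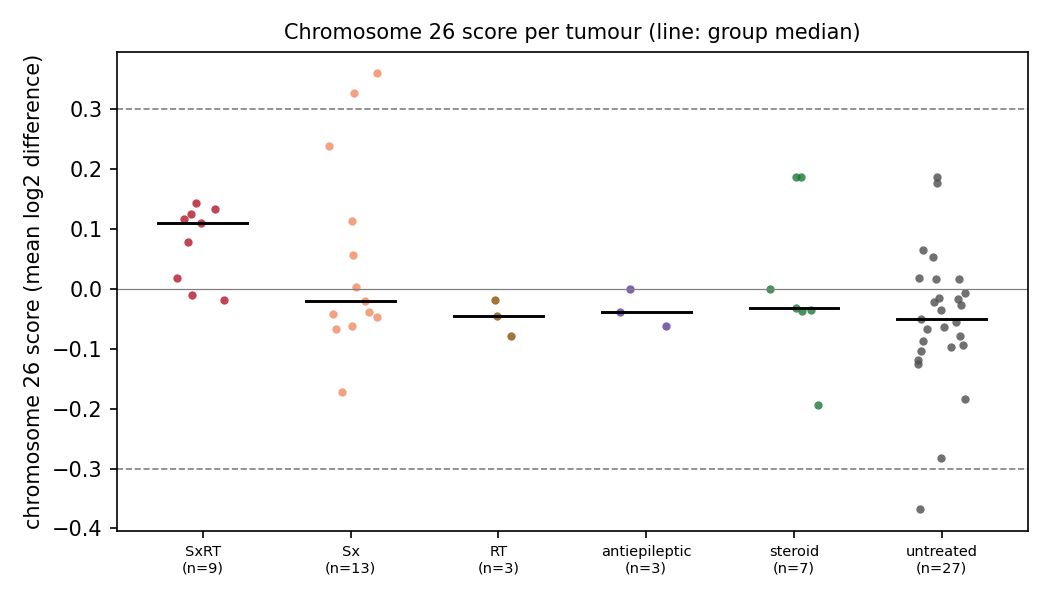
Chromosome 26 score of each of the 62 tumours (vertical axis, mean log2 difference from the gene means relative to the other autosomes) by treatment group, with a line at each group median and dashed lines at -0.3 and 0.3. A single untreated tumour lies below the lower dashed line and a pair of Sx tumours above the upper one.

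Chromosome 26 was among the less variable autosomes on this measure. Its SD of 0.126 compared with a range of 0.087 to 0.292 and a median of 0.158 over the 38 autosomes, and 9 autosomes had a smaller one. With 1 tumour below -0.3 it stood under the autosome median of 2, and 20 autosomes had more such tumours, 10 as many and 7 fewer. The most, 16, was on chromosome 17.

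**Figure D4:**
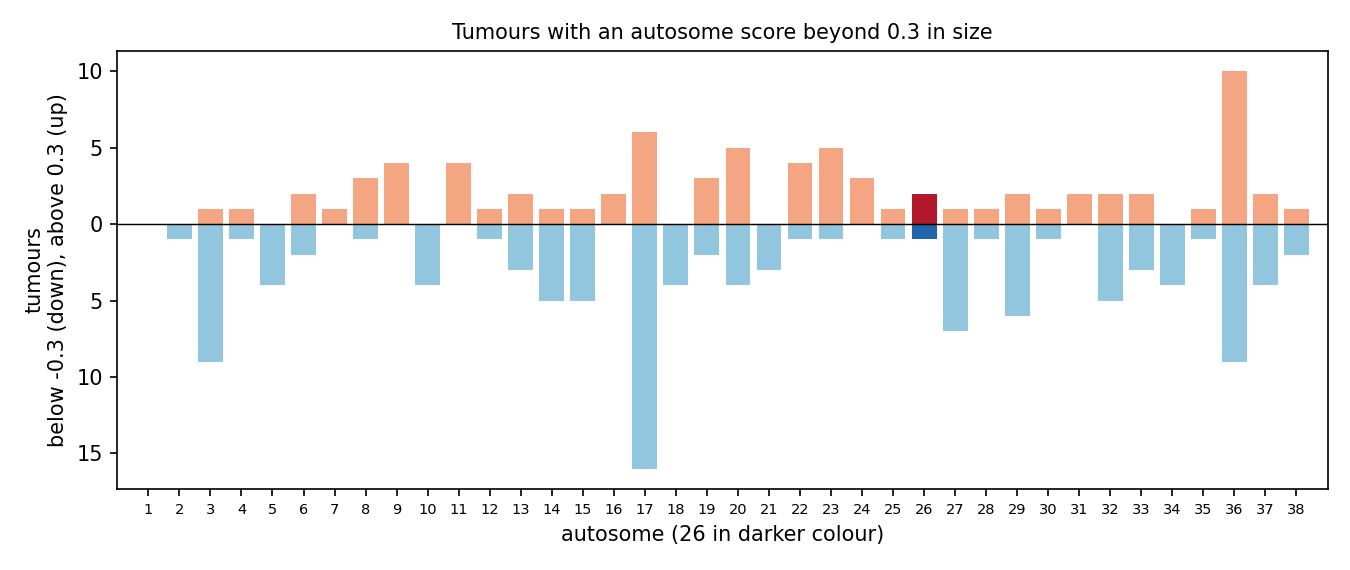
Number of the 62 tumours (vertical axis) with a score above 0.3 (upward bars) and below -0.3 (downward bars) for each of the 38 autosomes, with chromosome 26 in darker colour. Chromosome 26 has 2 tumours above and 1 below, and chromosome 17 has 16 below.

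The lowest tumour was not low along the whole chromosome. In untreated replicate 7 the section scores were -0.21, -0.17, -0.10, -0.24, -0.78, -0.53, -0.71 and -0.15 from section 1 to section 8, so sections 5 to 7 were far below and the first 4 only slightly. This tumour also had 11 autosomes below -0.3 and 4 above 0.3. Untreated replicate 4 had the most sections below -0.3, with -0.43, -0.23, -0.36, 0.02, -0.37, -0.76, -0.35 and 0.52, and a score of -0.28 over the whole chromosome. Its median over the autosomes, which the score subtracts, was -0.32, the lowest of the 62 tumours. Its library was also the shallowest (1967061 counts), with the fewest members counted (279) and the highest even share of small counts (95.3%). The part of depth in these section scores was not tested.

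The highest tumours were raised more evenly. In Sx replicate 8 the section scores were 0.42, 0.41, 0.51, 0.05, 0.29, 0.58, 0.48 and 0.29, and in Sx replicate 13 they were 0.39, 0.38, 0.30, 0.13, 0.47, 0.42, 0.19 and 0.22. In both the lowest section was section 4. Of the 38 autosomes, 9 were above 0.3 in the first of these tumours and 5 in the second. Of the 62 tumours 15 had no section beyond 0.3 in either direction, 1 had at least 4 sections below and 3 had at least 4 above.

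**Figure D5:**
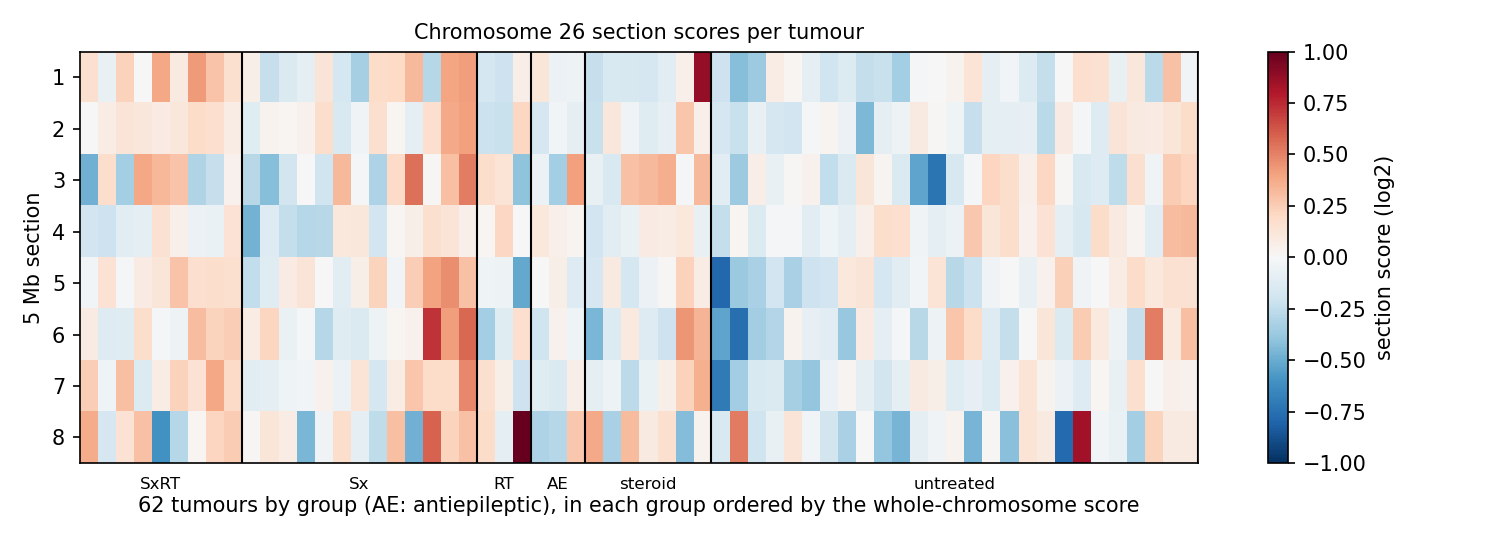
Score of each 5 Mb section of chromosome 26 (rows 1 to 8) in each of the 62 tumours (columns, by treatment group with untreated last and ordered within a group by the whole-chromosome score), with red above and blue below the other autosomes of the tumour. Untreated replicate 7 is blue in sections 5 to 7, and steroid replicate 5 stands out in section 1 at 0.88.

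Sections differed in how much they varied. The SD over tumours was smallest in section 4 (0.155, 47 members) and section 2 (0.159, 66 members) and largest in section 8 (0.329, 10 members) and section 3 (0.273, 22 members). In section 6 the scores ran from -0.76 in untreated replicate 4 to 0.72 in Sx replicate 12. The median score was above the untreated median in surgical tumours in every section but section 4, where it was -0.06 against 0.02 in untreated tumours.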

How the data were processed

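Per the labels' protocols, total RNA from paraffin sections, archived between 2011 and 2022, was sequenced as 150 nt Illumina pairs. Per the file headers, the authors ran featureCounts 2.0.4 on primary alignments with the Ensembl release 100 annotation of CanFam3.1, ignoring strand and counting each read of a pair, and deposited raw counts per gene. Between 61.0% and 88.9% of a library's values above 0 were even, so totals overstate the number of fragments. STAR, DESeq2 and canFam3 are named in the submitters' processing notes without versions.

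After filterByExpr on the treatment groups, 18370 of 30951 genes were left. TMM factors lay between 0.557 and 1.24. All 62 libraries entered one edgeR 4.0.16 quasi-likelihood fit (R 4.3.3) with 6 treatment groups, sex and neuter status. The common dispersion was 0.627, and the Benjamini-Hochberg adjustment ran over all genes tested. Surgical against untreated is the mean of Sx and SxRT less untreated. Alternatives used RLE size factors, no filter, DESeq2 1.42.0, limma 3.58.1 (voom with quality weights), other covariates and samples, and fits that left out 1 library each. Scores and figures were made with Python 3.11.15, numpy 2.4.6, pandas 2.3.3 and matplotlib 3.10.9. The fit was tested on simulated counts. The score was tested on the real counts after the chromosome 26 counts of some libraries had been thinned at random.

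Named members needed an adjusted p under 0.05, a mean of at least 1 log2 CPM and group medians that differed by 0.5 or more in the direction of the fit. They were taken by size of the fold change, up to 10 per direction. For surgical tumours 14 higher and 18 lower members passed. Where a comparison called none, the member with the smallest p is given. The members, lists, tests and rules were chosen with earlier results of these data known. The name table at hand matched 0 identifiers, so the listed pathway genes and cell type markers were not analysed here, and no sequence was read. Replicates were numbered in accession order. Among 1891 library pairs the smallest chi-square was 11.8 per gene, far above sampling noise.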

Additional observations from a re-analysis of the deposited data

Results flagged for a closer look

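Single tumours stood far from the others of their group in 9 of 79 groups of values examined (SxRT, steroid and intact dogs). The rule flags about 1 in 20 groups of independent, normally distributed values, and the number flagged here cannot be read against that rate. Some values stand at the level of no count, and genes were named from these same values. These groups also share libraries and genes and are not independent. Steroid replicate 5 had a section 1 score of 0.879, while the other 6 steroid tumours lay between -0.23 and 0.05. In the same tumour ENSCAFG00000009216 stood at 8.44 log2 CPM, against 0.64 to 3.86 in the others. This library held 46.7% mitochondrial counts, and the part of that share in these values was not tested.

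Steroid replicate 2 had no count, at -1.16 log2 CPM, for ENSCAFG00000011224 (others 1.90 to 3.63) and for the gene from 18573098 to 18691240 (others 4.59 to 6.61), which lie less than 1 Mb apart. Steroid replicate 6 stood at 6.92 log2 CPM for the gene from 7308902 to 7375376 (others 4.65 to 5.43).

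Among SxRT tumours, replicate 2 stood at 2.31 log2 CPM for ENSCAFG00000011224 (others up to 0.06) and at 3.15 for the gene from 22726526 to 22735125 (others up to 0.57), both members called lower in surgical tumours. SxRT replicate 3 stood at -0.27 log2 CPM for ENSCAFG00000015682 (others 1.13 to 2.31). SxRT replicate 4 stood at 1.13 for the gene from 31458727 to 31629135 (others up to -0.37).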

How the results depend on the processing

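Of 332 recomputed counts of called members 301 stayed within 1.5 times, most of them in the 4 comparisons whose count was 0. For surgical tumours the count was 53 to 74 under 8 alternatives, but 18 with the even share as covariate, 0 in samples numbered 11 to 16 and 0 in those numbered 17 to 22. Leaving out 1 library gave 52 to 75 (75 without Sx replicate 1), and 45 of the 60 were called in every such fit. The fit without a filter tested 506 members and 26146 genes. The steroid count was 3 without a filter, 3 with DESeq2 and 2 with limma voom (ENSCAFG00000009216 not among them). It was 2 without sex and neuter status, 0 with the compared groups alone and 0 to 3 leaving out 1 library. Over all genes the settings before the last called 151, 146, 281, 109 and 1 for steroid, in that order. For RT the member count was 8 without a filter and 1 with the compared groups alone. Leaving out 1 library gave 0 to 5 for RT (0 without replicate 1, 5 without replicate 3). Over all genes RT had 216 calls without a filter, 23 with the compared groups alone and 8 without replicate 1. For anti-epileptic the member count was 1 without a filter (31 over all genes) and 1 with DESeq2 (29). For SxRT against Sx it was 1 with DESeq2 (40 over all genes), and for sex 2 without a filter (203). For neuter status it was 1 without a filter (45 over all genes) and 1 with DESeq2 (47). Leaving out 1 library gave 0 to 1 for neuter status (1 without untreated replicate 14, with 10 over all genes). Leaving out 1 library put ENSCAFG00000009216 between -0.18 (without steroid replicate 5) and 3.64, and the gene that starts at 23600237 between -0.32 (without RT replicate 1) and 6.11; the cause was not tested.

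The number of tumours with a score below -0.3 was 3 without centring, 2 with a prior count of 0.5 and 0 with gene means over untreated tumours, and 1 lay above 0.3 with members of a mean of at least 0. The SxRT median was then 0.017. The RT median was -0.087 with a mean of at least 4 and -0.083 without centring. The anti-epileptic median was -0.072 with a median over genes and -0.072 with a mean of at least 4. No paired analysis was possible because replicate numbers follow accession order and pair no dogs. Groups of 3 and the even counts limit the precision.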
